A study of Mus musculus with 16 samples.

Results

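The genes of cholesterol and fatty acid synthesis were examined in RNA-seq libraries of mouse hypothalamus. The 31 members were chosen by symbol, for their known place in these pathways: 8 enzymes of the mevalonate arm, 11 enzymes of the sterol arm from squalene to cholesterol, 4 regulators and sterol carriers, and 8 enzymes of fatty acid synthesis and desaturation. All 31 of 31 were found. Each passed the filter on low counts, a CPM (counts scaled to a fixed library total) over 1 in some library, as did 15808 of the 55401 genes in the files, and the lowest value of any member in any library was 12.02 CPM, for Tm7sf2. The study asked how loss of ASIC1a, a proton-gated sodium channel of neurons, alters hypothalamic signalling at different times of the day. Hypothalami were taken at ZT13, early in the dark phase, and at ZT1, early in the light phase (ZT, Zeitgeber time, counts hours from lights on). The 16 libraries form 4 groups of 4: ASIC1a-/- at ZT13, WT at ZT13, ASIC1a-/- at ZT1 and WT at ZT1. Each library came from a different male mouse aged 3 months, bred from heterozygous parents on a C57BL/6 background and fed without restriction, and no group received a drug. The ASIC1a-/- mice lack the channel throughout the body and throughout life, so a difference in the hypothalamus cannot be assigned to a cell type or to an age at which the channel was needed.

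Cholesterol is made from acetyl-CoA through mevalonate, isoprenoid diphosphates, squalene and lanosterol, and fatty acids are built from acetyl-CoA and malonyl-CoA and then elongated and desaturated. Transcription of the genes of both pathways is raised by the sterol regulatory element binding proteins encoded by Srebf2 and Srebf1, which are held in the endoplasmic reticulum by INSIG proteins when sterols are plentiful and released to the nucleus when sterols are scarce. The brain makes nearly all of its own cholesterol because plasma lipoproteins do not cross the blood-brain barrier, and oligodendrocytes and astrocytes are its main producers.

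Total expected counts ran from 34888522 to 42326259 per library (median 35750448). Asic1, the gene that carries the deletion, was at 64.9 to 71.9 CPM in the 8 ASIC1a-/- libraries and at 97.1 to 105.9 CPM in the 8 WT libraries, so the groups did not overlap and every library matched its label. Hypothalamic neuropeptide transcripts were present in every library, with Pmch (melanin-concentrating hormone) at 727 to 1182 CPM and Hcrt (orexin) at 82.1 to 159.7 CPM, whereas Oxt (oxytocin) was at 6.78 to 17.1 CPM and Agrp at 2.19 to 4.55 CPM. Markers of the meninges stood 1.39 on the log2 scale above the mean of all libraries in ASIC1a-/- ZT13 replicate 2 and 2.24 above it in ASIC1a-/- ZT1 replicate 4, and the other 14 libraries lay between -0.68 and 0.51. Counts of members called between ZT13 and ZT1 are given with and without this pair of libraries below.

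The stretches of DNA around the start sites of 4 members are shown as examples, and no result below rests on their letters. At ZT13 Mvd rose most, Sc5d rose and Ebp fell. Hmgcs1 was the only member with an exact match to the sterol regulatory element searched for. Each is a RefSeq window of 300 bases, 250 before the annotated start and 50 after it, in GRCm38.p6: Mvd at chr8:122443373-122443672 on the minus strand, Sc5d at chr9:42264251-42264550 on the minus strand, Ebp at chrX:8193463-8193762 on the minus strand and Hmgcs1 at chr13:119690101-119690400 on the plus strand. Capitals mark matches, on either strand, to the sterol regulatory element TCACNCCAC, the E-box CACGTG bound by the circadian factors CLOCK and BMAL1, the CCAAT box bound by NF-Y, and the GC box GGGCGG bound by Sp1.
Mvd: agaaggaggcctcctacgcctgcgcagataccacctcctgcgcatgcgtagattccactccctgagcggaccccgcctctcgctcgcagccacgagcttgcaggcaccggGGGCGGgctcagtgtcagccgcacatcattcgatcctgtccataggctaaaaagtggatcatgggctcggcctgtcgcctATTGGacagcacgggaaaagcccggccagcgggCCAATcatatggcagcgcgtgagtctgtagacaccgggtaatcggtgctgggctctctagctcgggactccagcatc
Sc5d: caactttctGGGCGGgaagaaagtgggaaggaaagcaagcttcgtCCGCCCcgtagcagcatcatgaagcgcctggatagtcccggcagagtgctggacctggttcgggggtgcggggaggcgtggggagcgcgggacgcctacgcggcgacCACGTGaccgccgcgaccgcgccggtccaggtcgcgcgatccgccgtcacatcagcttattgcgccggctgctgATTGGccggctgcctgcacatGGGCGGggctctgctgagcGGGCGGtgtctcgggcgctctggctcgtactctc
Ebp: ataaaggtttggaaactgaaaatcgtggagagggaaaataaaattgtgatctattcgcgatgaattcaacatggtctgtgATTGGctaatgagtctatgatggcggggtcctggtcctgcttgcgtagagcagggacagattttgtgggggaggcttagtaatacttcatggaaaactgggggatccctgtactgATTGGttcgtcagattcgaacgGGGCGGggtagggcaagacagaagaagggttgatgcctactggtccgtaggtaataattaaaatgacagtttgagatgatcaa
Hmgcs1: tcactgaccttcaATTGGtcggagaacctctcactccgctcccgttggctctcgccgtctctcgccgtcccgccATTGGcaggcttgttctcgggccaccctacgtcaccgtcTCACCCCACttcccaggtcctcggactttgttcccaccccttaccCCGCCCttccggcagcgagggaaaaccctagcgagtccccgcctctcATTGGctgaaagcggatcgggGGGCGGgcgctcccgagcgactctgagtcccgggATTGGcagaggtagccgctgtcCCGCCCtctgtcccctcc
A RefSeq window was matched by symbol for 24 of the 31 members, with 29 windows in all; Sqle, Fdft1, Fdps, Stard4, Fads1, Scd1 and Scd2 were not matched. Among the 24, the sterol regulatory element was found in 1 member (4.17%), Hmgcs1, at 137 bases before the start, against 1.44% of the 27025 genes with a window and 1.36% of those that passed the count filter. The E-box stood in 4 members (16.7%), Sc5d, Insig1, Hsd17b7 and Dhcr7, against 8.09% of all genes with a window and 11.3% of those that passed the count filter. A CCAAT box was present in 20 members (83.3%), against 41.1% of all genes and 42.6% of those that passed the filter. For the GC box the shares were 19 members (79.2%) against 38.2% of all genes and 67% of those that passed the filter. No match to 1 motif overlapped a match to another in the members' windows. In Mvd the CCAAT boxes began 60 and 27 bases before the start, and in Ebp they began 170 and 55 bases before it. A match describes these letters only, and was not tested as a site. Other spellings of each motif, and members without a window, were not searched.

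Compared per transcript length, in TPM (transcript abundance scaled to a fixed total per library), the members spanned a wide range of levels. Scd2, the brain's main stearoyl-CoA desaturase, which makes monounsaturated fatty acids, was far above the rest at 1058 ± 27.8 TPM (SD, n = 16), and its lowest library (994.5 TPM) was above the highest value of any other member. Next came Hmgcs1, which makes the mevalonate precursor HMG-CoA, at 192.2 ± 8.66 TPM, the front desaturases Fads2 at 191.7 ± 6.95 TPM and Fads1 at 177.2 ± 5.63 TPM, and the second desaturase Scd1 at 173.9 ± 6.21 TPM. The ranges of these 4 overlapped from each to the next, so their order is not fixed by the data. Fatty acid synthase (Fasn, 149.8 ± 8.03 TPM) and ATP citrate lyase (Acly, 143.5 ± 3.64 TPM), which supplies cytosolic acetyl-CoA, followed, with overlapping ranges. At the low end the sterol carrier Stard4, at 17.9 ± 0.66 TPM, overlapped its upper neighbour Tm7sf2, and the sterol ketoreductase Hsd17b7, at 9.26 ± 0.74 TPM, lay below every other member. Mvd (21.5 ± 2.65 TPM), Lss (20.3 ± 2.27 TPM), Tm7sf2 (20.2 ± 1.76 TPM) and Ebp (24.1 ± 2.78 TPM) were also low and overlapped each other. Summed over the 31 members, the level was 3478 ± 43.1 TPM in ASIC1a-/- mice and 3396 ± 89.9 TPM in WT mice at ZT13, and 3347 ± 42.1 TPM in ASIC1a-/- mice and 3406 ± 81.7 TPM in WT mice at ZT1 (SD, n = 4 each). Reads that Scd1 and Scd2 share were divided between them by the authors' estimate, so their separate levels are less certain than their sum.

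**Figure D1:**
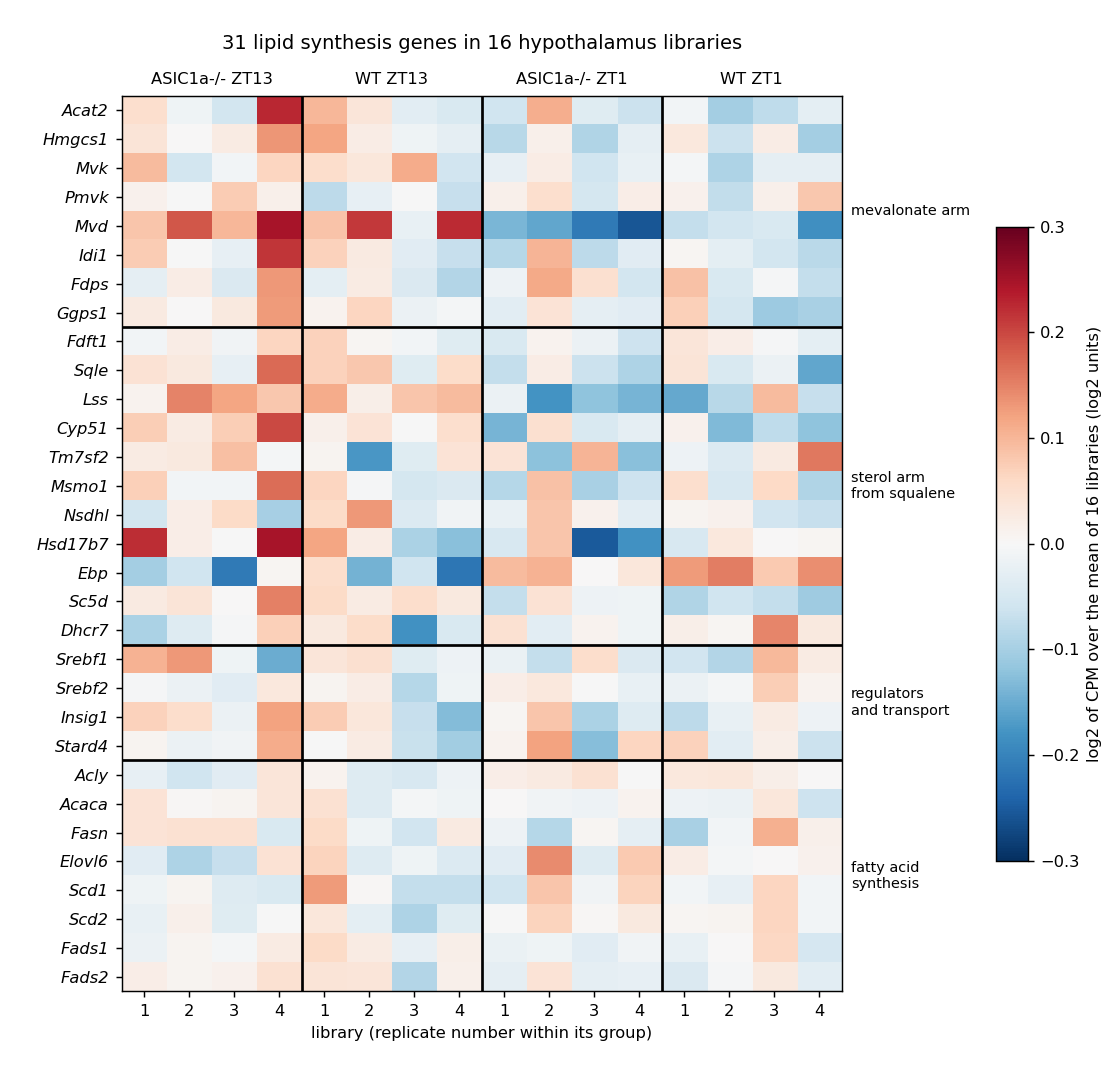
Each row is a member, grouped by role, and each column a library of the ASIC1a-/- ZT13, WT ZT13, ASIC1a-/- ZT1 and WT ZT1 groups, with 4 libraries a group; colour gives the log2 of CPM over that gene's mean in all 16 libraries, from -0.3 (blue) to 0.3 (red). The Mvd row is above its mean of 17.95 CPM in every ZT13 library except WT ZT13 replicate 3 (17.6 CPM) and below it in every ZT1 library, and the Ebp row is mostly blue at ZT13 and red at ZT1.

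Between ZT13 and ZT1 a few members of cholesterol synthesis differed, by small amounts, and none of the 8 members of fatty acid synthesis passed the threshold. Averaged over both genotypes, 6 of the 31 members (19.4%) were called at an adjusted p under 0.05 by edgeR's quasi-likelihood test, against 26.4% of all genes, so the share of members called was below the background. Mvd, Lss, Cyp51, Sc5d and Sqle were higher at ZT13 and Ebp was lower. Higher calls made up 5 of the 31 members against 14.3% of all genes, and lower calls 1 of 31 against 12.1%. The median log2 fold change of the members was 0.02, against -0.0049 over all genes tested. Without the pair of libraries high in meningeal markers the count was again 6, against 23.2% of all genes then. Hmgcs1 was then called (edgeR adjusted p = 0.0429) and Sqle was not (0.0555). In bulk tissue a smaller number of cells of a type and less RNA per cell cannot be told apart, and this holds for each difference below.

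Mvd (ENSMUSG00000006517, chr8:122433601-122443422, minus strand) encodes mevalonate diphosphate decarboxylase, which makes the isoprenoid unit isopentenyl diphosphate. It stood at 18.9, 20.3, 19.1 and 21.2 CPM in ASIC1a-/- mice at ZT13, against 16.2, 16.02, 15.4 and 14.9 CPM in ASIC1a-/- mice at ZT1. In WT mice it stood at 18.9, 20.7, 17.6 and 20.9 CPM at ZT13, against 17.0, 17.2, 17.3 and 15.71 CPM at ZT1. All 8 libraries at ZT13 were above all 8 at ZT1, which held for Mvd alone among the members and, upwards, for 3.5% of all genes, with 2.45% the other way. The log2 fold change of Mvd averaged over genotypes was 0.28 ± 0.04 (SE; 95% interval 0.20 to 0.36; edgeR adjusted p = 5.59e-05), a rise of 21.5%. Within genotypes it was 0.34 ± 0.06 in ASIC1a-/- mice (adjusted p = 0.000696) and 0.22 ± 0.06 in WT mice (adjusted p = 0.0158). The WT call was lost without WT ZT13 replicate 2 (adjusted p = 0.0504), WT ZT13 replicate 4 (0.0598) or WT ZT1 replicate 4 (0.0584).

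The other 7 enzymes of the mevalonate arm were not called between the times. Hmgcs1 (ENSMUSG00000093930, chr13:119690379-119708260, plus strand) had 314.1, 306.0, 311.2 and 335.2 CPM in ASIC1a-/- mice at ZT13, against 288.9, 309.4, 287.5 and 300.2 CPM in ASIC1a-/- mice at ZT1. In WT mice Hmgcs1 had 332.2, 310.9, 303.2 and 300.3 CPM at ZT13, against 312.6, 292.6, 310.6 and 285.0 CPM at ZT1. The times overlapped in each genotype, and the averaged log2 fold change of 0.07 ± 0.03 fell just short of the threshold (adjusted p = 0.0516). Under 11 of the 26 alternative settings it passed, with DESeq2 giving an adjusted p of 0.0307. Acat2, the cytosolic thiolase that joins acetyl-CoA units, had an averaged log2 fold change of 0.07 (adjusted p = 0.209), the kinase Mvk 0.06 (0.159), the isomerase Idi1 0.06 (0.196) and Ggps1, which makes the geranylgeranyl chain of prenylated proteins, 0.06 (0.129). The kinase Pmvk at -0.02 (adjusted p = 0.659) and farnesyl diphosphate synthase (Fdps) at -0.01 (0.779) were the members of the arm with values below 0. The median of the 8 was 0.06.

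In the sterol arm 5 of the 11 enzymes (45.5%) were called between the times, 4 higher and 1 lower at ZT13, against 26.4% of all genes, 14.3% higher and 12.1% lower. Without the pair of libraries high in meningeal markers Sqle dropped out and 4 (36.4%) were called, against 23.2% of all genes then. Lss (ENSMUSG00000033105, chr10:76531588-76557138, plus strand) is lanosterol synthase, which folds squalene epoxide into the first sterol. It was at 47.8, 52.6, 51.5 and 50.2 CPM in ASIC1a-/- mice at ZT13, against 46.9, 42.0, 43.6 and 43.1 CPM in ASIC1a-/- mice at ZT1. WT mice had 51.3, 48.0, 50.3 and 50.7 CPM at ZT13, against 42.6, 44.8, 50.7 and 45.2 CPM at ZT1. The times did not overlap in ASIC1a-/- mice, which was so upwards for 8.83% and downwards for 6.89% of all genes, whereas WT ZT1 replicate 3 lay among the WT ZT13 libraries. Averaged over genotypes the log2 fold change of Lss was 0.17 ± 0.03 (95% interval 0.09 to 0.24; edgeR adjusted p = 0.00172), and it was 0.20 ± 0.05 in ASIC1a-/- mice (0.0116) and 0.13 ± 0.05 in WT mice (0.0939). Without the pair of libraries high in meningeal markers the ASIC1a-/- value was 0.18 and its call was lost (adjusted p = 0.0712), while on the log2(TPM + 1) scale it was 0.33 (0.00916).

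Cyp51 (ENSMUSG00000001467, chr5:4081145-4104746, minus strand), the lanosterol demethylase, was at 98.7, 95.4, 98.8 and 107.6 CPM in ASIC1a-/- mice at ZT13, against 85.1, 97.0, 90.9 and 92.1 CPM in ASIC1a-/- mice at ZT1. In WT mice Cyp51 was at 94.8, 96.5, 93.7 and 97.1 CPM at ZT13, against 94.6, 85.6, 89.0 and 86.2 CPM at ZT1. A single ZT1 library in each genotype reached into the ZT13 range. The averaged log2 fold change was 0.12 ± 0.03 (95% interval 0.06 to 0.18; edgeR adjusted p = 0.00637) and was 0.19 on the log2(TPM + 1) scale (0.00304). In ASIC1a-/- mice Cyp51 only just passed the threshold, at 0.13 ± 0.04 (adjusted p = 0.048), and that call was lost under 16 of the 26 alternatives. In WT mice it was 0.10 ± 0.04 (adjusted p = 0.113).

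Sc5d (ENSMUSG00000032018, chr9:42251595-42264256, minus strand), the sterol desaturase that acts near the end of the pathway, was at 112.6, 113.4, 110.6 and 122.7 CPM in ASIC1a-/- mice at ZT13, against 105.2, 113.8, 109.3 and 109.5 CPM in ASIC1a-/- mice at ZT1. WT mice had 114.9, 112.4, 114.5 and 112.7 CPM at ZT13, against 103.8, 106.0, 105.2 and 102.6 CPM at ZT1. The times did not overlap in WT mice, as for 9.63% of all genes upwards, and overlapped through ASIC1a-/- ZT1 replicate 2 in the mutants. The averaged log2 fold change of Sc5d was 0.10 ± 0.02 (95% interval 0.05 to 0.14; edgeR adjusted p = 0.00351), with 0.07 ± 0.03 in ASIC1a-/- mice (0.160) and 0.12 ± 0.03 in WT mice (0.0143). Sqle (ENSMUSG00000022351, chr15:59315077-59331192, plus strand), squalene epoxidase, which adds oxygen to squalene, gave 104.0, 103.0, 99.1 and 113.4 CPM in ASIC1a-/- mice at ZT13, against 95.9, 102.5, 96.5 and 94.7 CPM in ASIC1a-/- mice at ZT1. For Sqle in WT mice the values were 105.8, 106.7, 98.4 and 104.8 CPM at ZT13, against 103.7, 97.7, 99.7 and 90.5 CPM at ZT1. Its times overlapped in both genotypes. The averaged log2 fold change of Sqle, 0.10 ± 0.03 (adjusted p = 0.0297), was past the threshold, but not under 8 of the 26 alternatives, where the adjusted p ran up to 0.0637.

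Ebp (ENSMUSG00000031168, chrX:8185329-8193512, minus strand), the sterol isomerase that moves the ring double bond before the step of Sc5d, went the other way. Its values were 15.5, 15.96, 14.4 and 16.7 CPM in ASIC1a-/- mice at ZT13, against 17.8, 17.9, 16.6 and 17.0 CPM in ASIC1a-/- mice at ZT1. In WT mice they were 17.3, 15.1, 15.96 and 14.3 CPM at ZT13, against 18.2, 18.5, 17.6 and 18.3 CPM at ZT1. All WT ZT13 libraries were below all WT ZT1 libraries, which was so downwards for 8.68% of all genes, and ASIC1a-/- ZT13 replicate 4 was the library that reached the ASIC1a-/- ZT1 range. The averaged log2 fold change of Ebp was -0.18 ± 0.04 (95% interval -0.26 to -0.10; edgeR adjusted p = 0.00233), with -0.21 ± 0.06 in WT mice (0.0168) and -0.15 ± 0.06 in ASIC1a-/- mice (0.0895). The counts behind it were 515 to 658 per library. On the log2(TPM + 1) scale the WT value was -0.34 (adjusted p = 0.00645) and the ASIC1a-/- value -0.0068 (0.969), and without WT ZT13 replicate 4 the WT call was lost (0.0661).

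The remaining 6 enzymes of the sterol arm were not called. Hsd17b7 had an averaged log2 fold change of 0.10 ± 0.05 (edgeR adjusted p = 0.169), Msmo1, which oxidises the methyl groups of lanosterol products, 0.05 (0.335), squalene synthase (Fdft1) 0.02 (0.404) and the decarboxylating enzyme Nsdhl 0.02 (0.751). The sterol reductase Tm7sf2 had -0.0070 (0.928), and Dhcr7, which acts at a last step, had -0.05 (0.290). The median of the 11 was 0.05.

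**Figure D2:**
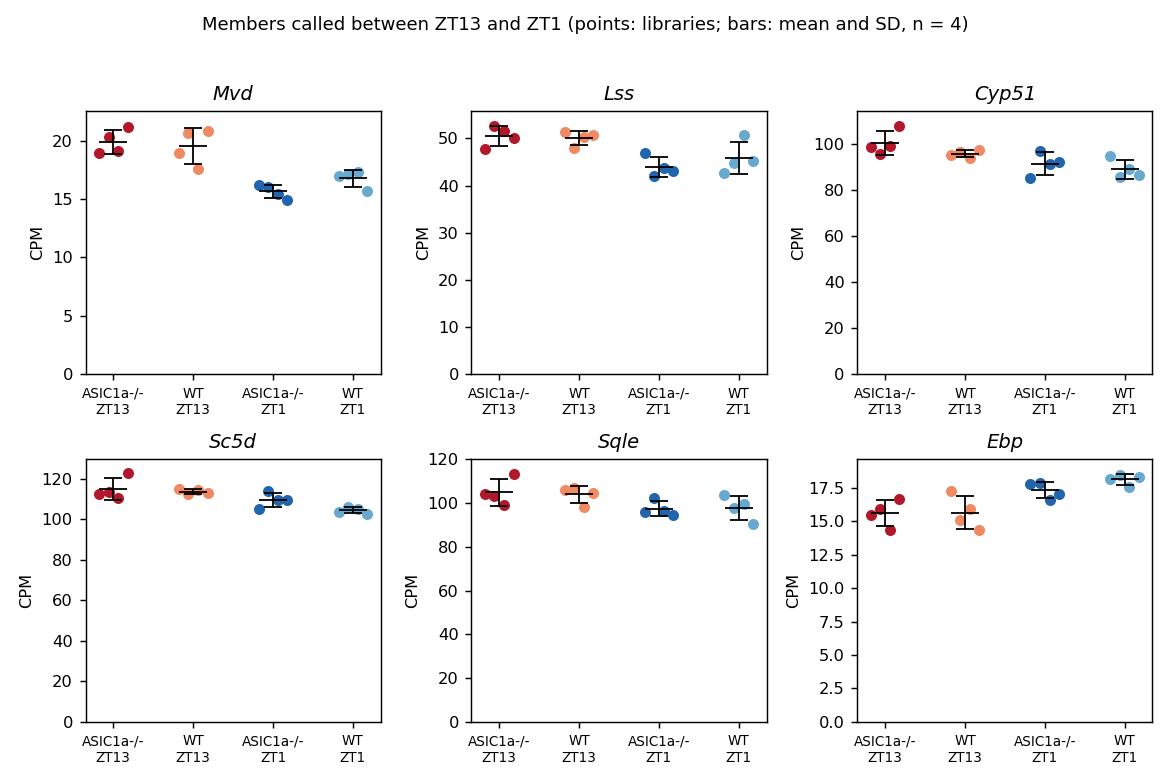
CPM on a linear axis from 0 for the 6 members called between ZT13 and ZT1, in the ASIC1a-/- ZT13, WT ZT13, ASIC1a-/- ZT1 and WT ZT1 groups; points are libraries and black bars the mean and SD (n = 4). Mvd averaged 19.9 and 19.5 CPM at ZT13 against 15.6 and 16.8 CPM at ZT1 in ASIC1a-/- and WT mice, while Ebp averaged 15.63 and 15.66 CPM against 17.3 and 18.2 CPM.

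None of the 4 regulators and sterol carriers was called between the times. Srebf2, the master regulator of sterol genes, was at 211.8, 209.7, 207.5 and 217.1 CPM in ASIC1a-/- mice at ZT13, against 215.4, 216.9, 212.0 and 209.2 CPM in ASIC1a-/- mice at ZT1. WT mice had 213.5, 215.5, 200.2 and 210.4 CPM of Srebf2 at ZT13, against 209.8, 211.5, 223.4 and 213.9 CPM at ZT1. The averaged log2 fold change was -0.02 ± 0.02, and its 95% interval ran from -4.23% to 1.204% (adjusted p = 0.414). Srebf1, the regulator of fatty acid genes, was at 93.6, 95.3, 86.2 and 78.5 CPM in ASIC1a-/- mice at ZT13, against 85.9, 82.9, 90.3 and 84.5 CPM in ASIC1a-/- mice at ZT1. For WT mice Srebf1 gave 89.2, 90.0, 84.8 and 86.2 CPM at ZT13, against 83.6, 81.9, 93.1 and 88.5 CPM at ZT1, so the times overlapped in both genotypes (averaged log2 fold change 0.03 ± 0.04, adjusted p = 0.636). Insig1, the SREBP anchor whose own gene is an SREBP target, had 91.4, 90.5, 86.1 and 94.7 CPM in ASIC1a-/- mice at ZT13, against 87.6, 92.4, 81.6 and 84.9 CPM in ASIC1a-/- mice at ZT1. In WT mice Insig1 had 91.9, 89.3, 83.1 and 79.6 CPM at ZT13, against 82.5, 85.8, 88.7 and 86.3 CPM at ZT1. Again the times overlapped, with an averaged log2 fold change of 0.03 ± 0.03 (adjusted p = 0.470), and Stard4 had -0.02 (0.779).

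None of the 8 fatty acid genes was called between the times. Fasn, which builds palmitate, was at 483.3, 485.0, 485.1 and 455.1 CPM in ASIC1a-/- mice at ZT13, against 464.4, 442.9, 471.8 and 461.0 CPM in ASIC1a-/- mice at ZT1. WT mice had 488.6, 465.7, 451.1 and 478.1 CPM of Fasn at ZT13, against 439.1, 467.0, 506.0 and 474.4 CPM at ZT1. WT ZT1 held both the lowest and the highest library, and the averaged log2 fold change was 0.03 ± 0.03 (adjusted p = 0.518). Scd2 was at 2863, 2938, 2837 and 2908 CPM in ASIC1a-/- mice at ZT13, against 2909, 3048, 2918 and 2967 CPM in ASIC1a-/- mice at ZT1. In WT mice Scd2 was at 2977, 2851, 2728 and 2837 CPM at ZT13, against 2922, 2924, 3042 and 2894 CPM at ZT1. The averaged difference of -0.04 ± 0.02 on the log2 scale was not called (adjusted p = 0.0843), although it passed without WT ZT13 replicate 1 (0.0206). Scd1 was at 416.9, 422.9, 409.5 and 407.6 CPM in ASIC1a-/- mice at ZT13, against 403.6, 445.8, 417.7 and 440.9 CPM in ASIC1a-/- mice at ZT1. For Scd1 in WT mice the values were 459.7, 421.6, 400.1 and 400.3 CPM at ZT13, against 418.6, 413.3, 440.0 and 418.1 CPM at ZT1. Its times overlapped in both genotypes (averaged log2 fold change -0.03 ± 0.03, adjusted p = 0.546). Acly had -0.04 (adjusted p = 0.0527), the elongase Elovl6 -0.05 (0.250), acetyl-CoA carboxylase (Acaca) 0.02 (0.440), Fads1 0.02 (0.385) and Fads2 0.02 (0.440). The median of the 8 was -0.0032.

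Taken by genotype, 3 of 31 members (9.68%) were called in ASIC1a-/- mice, all higher at ZT13 (Mvd, Lss and Cyp51), against 11.3% of all genes, 6.72% higher and 4.62% lower, and 3 of 31 (9.68%) in WT mice (Mvd and Sc5d higher, Ebp lower), against 13.3%, 7.52% higher and 5.76% lower. Without the pair of libraries high in meningeal markers the ASIC1a-/- count was 1, Mvd, and the share of all genes called fell to 7%. With library size alone as the scaling the ASIC1a-/- count was 5. Without WT ZT13 replicate 4 the WT count was 1, Sc5d, while calls over all genes fell from 2099 to 1320. A call in only a single genotype does not show that the genotypes differ, and the test of that difference is given below.

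Some markers of cell types differed between the times as well, read against 26.4% of all genes called, 14.3% higher and 12.1% lower. Of 10 oligodendrocyte markers 4 were lower at ZT13 averaged over genotypes, Opalin by a log2 fold change of -0.56, Ugt8a -0.39, Cnp -0.20 and Mag -0.13, while 6 were not called, and the list median was -0.08. Of 5 early oligodendrocyte markers 2, Enpp6 (-0.41) and Cspg4 (-0.25), were lower. The summed oligodendrocyte markers ran from 5363 to 5965 CPM in ASIC1a-/- mice at ZT13 against 5188 to 6994 CPM at ZT1, and from 4995 to 5970 CPM in WT mice at ZT13 against 5512 to 5679 CPM at ZT1. Among 7 astrocyte markers 1, Gja1, was lower (-0.16) and 6 were not called, and their sum ran from 3873 to 3967 CPM in ASIC1a-/- mice at ZT13 against 3977 to 4131 CPM at ZT1, and from 3806 to 4283 CPM in WT mice at ZT13 against 4043 to 4217 CPM at ZT1. Of 5 endothelial markers Cldn5 (-0.39) and Tek (-0.23) were lower and Ly6c1 (0.44) was higher, and of 7 microglial markers Cx3cr1 (-0.27) and Csf1r (-0.08) were lower. None of 5 neuronal, 0 of 7 meningeal, 0 of 8 hypothalamic and 0 of 5 thalamic markers were called. In WT mice all 5 thalamic markers were below 0, with a median of -0.16. Of these, 2 had an edgeR unadjusted p under 0.05, as did 4283 of all 15808 genes. The thalamic markers stood -0.04 to 0.54 from the mean of all libraries on the log2 scale in WT mice at ZT1. In WT mice at ZT13 they stood -0.14 to 0.04 from it. The anterior pituitary transcripts Gh, Prl and Cga were higher at ZT13 in WT mice. The summed pituitary markers were at 0.73 to 9.95 CPM at ZT13 and 4.67 to 14.1 CPM at ZT1 in ASIC1a-/- mice, and at 5.78 to 40.4 CPM at ZT13 and 0.51 to 3.54 CPM at ZT1 in WT mice. No marker of these lists was at 0 in any library, apart from 2 of the 5 pituitary markers, of which 1 was at 0 throughout a group. Without the pair of libraries high in meningeal markers 23.2% of all genes were called. The counts for oligodendrocytes, early oligodendrocytes, astrocytes and neurons were then the same. Csf1r was no longer called, Pecam1 was called in place of Tek, and 4 of 7 meningeal markers were called, 1 higher and 3 lower. The part of these shifts in the values of the members was not tested.

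**Figure D3:**
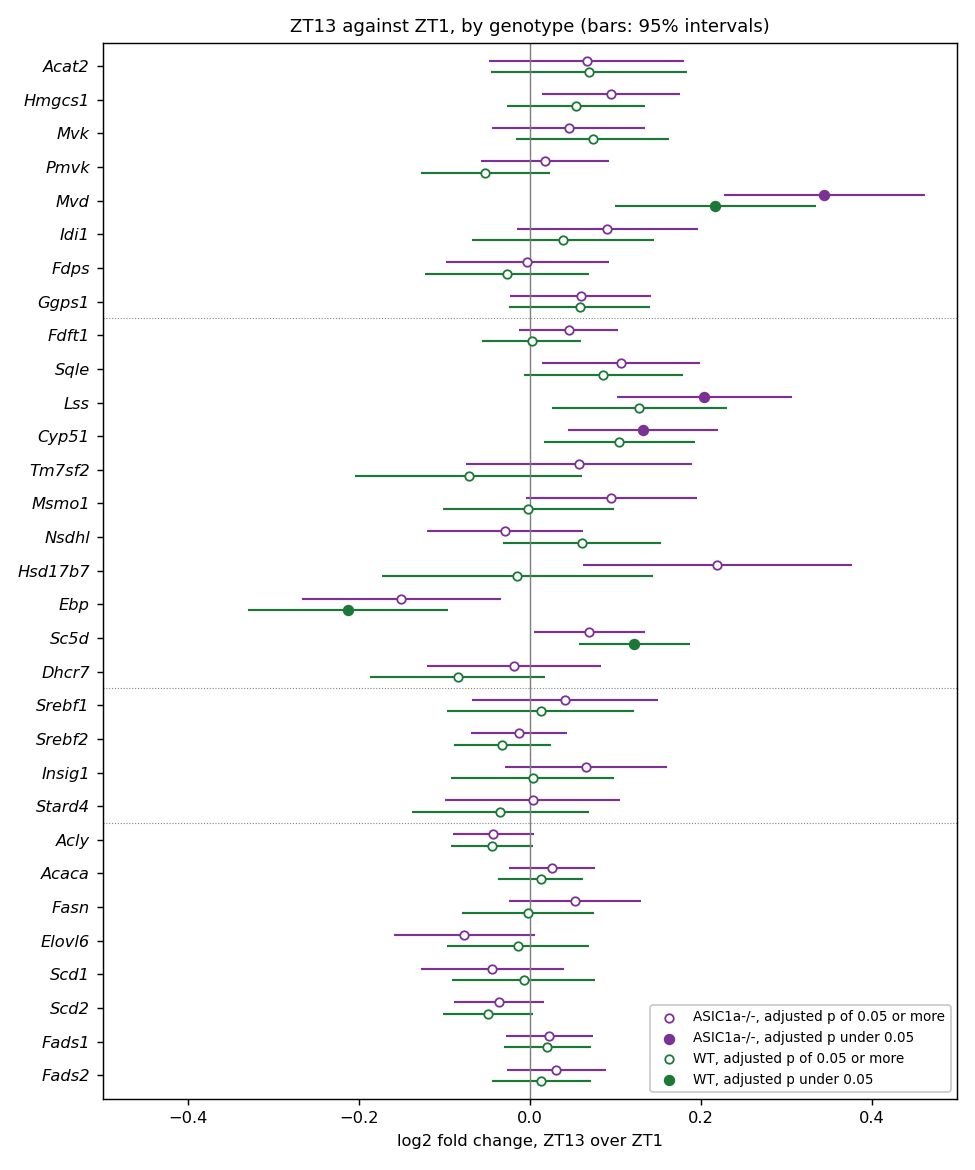
Log2 fold change of each member at ZT13 over ZT1, with its 95% interval, in ASIC1a-/- mice (purple, upper) and WT mice (green, lower); filled points have an adjusted p under 0.05 and dotted lines part the role groups. Mvd lies to the right in both genotypes, Ebp to the left in both, and the intervals of the 2 genotypes overlap for every member.

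The deletion of ASIC1a was the study's main contrast, and no member passed the threshold between ASIC1a-/- and WT mice. At ZT13 0 of 31 members were called by edgeR (16 of all 15808 genes, 0.101%), and 0 had an unadjusted p under 0.05, against 3.74% of all genes. At ZT1 0 of 31 were called (0.0127% of all genes) and 1 had an unadjusted p under 0.05, against 7% of all genes. Averaged over the times the members gave 0 of 31 (0.0633% of all genes), with 0 at an unadjusted p under 0.05, against 6.8% of all genes. The libraries of the genotypes overlapped for every member at each time, while they did not overlap for 2.58% of all genes at ZT13 and 2.92% at ZT1. DESeq2, limma-voom and the other alternatives, 26 in all, called 0 members in each of these comparisons.

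The sizes these data allow were small. At ZT13 the log2 fold changes of the 31 members ran from -0.05 (Nsdhl) to 0.14 (Hsd17b7), with a median of 0.02, and 30 of the 31 had a 95% interval within 20% either way. At ZT1 they ran from -0.10 (Mvd) to 0.07 (Sc5d), with a median of 0.0017, and all 31 intervals lay within 20%. The averaged values ran from -0.04 to 0.05, and their intervals from -8.04% to 9.96%.

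Hsd17b7 showed the widest difference at ZT13. It was at 16.8, 14.6, 14.4 and 17.1 CPM in ASIC1a-/- mice and at 15.6, 14.6, 13.5 and 13.2 CPM in WT mice at ZT13, and the groups overlapped. Its log2 fold change there was 0.14 ± 0.07 (95% interval -0.01 to 0.30; adjusted p = 0.9997). At ZT1 Hsd17b7 was at 13.9, 15.2, 12.1 and 12.7 CPM in ASIC1a-/- mice and at 13.9, 14.7, 14.4 and 14.4 CPM in WT mice, which gave -0.09 ± 0.08 on the log2 scale (adjusted p = 0.828). Mvd at ZT1, with the values given above, had a log2 fold change of -0.10 ± 0.06 in ASIC1a-/- over WT mice (95% interval -0.22 to 0.02; adjusted p = 0.733). For Sc5d at ZT1, the member with an unadjusted p under 0.05, it was 0.07 ± 0.03 (95% interval 0.00292 to 0.13; unadjusted p = 0.0415, adjusted p = 0.680), and ASIC1a-/- ZT1 replicate 1 lay among the WT libraries.

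The regulators had overlapping values in the genotypes at both times. Srebf2 averaged 211.5 ± 4.11 CPM in ASIC1a-/- mice and 209.9 ± 6.79 CPM in WT mice at ZT13, and 213.4 ± 3.48 CPM in ASIC1a-/- mice and 214.6 ± 6.07 CPM in WT mice at ZT1 (n = 4 mice each, SD). Its interval at ZT13 ran from -3.10% to 4.77%. Insig1 averaged 90.7 ± 3.56 CPM in ASIC1a-/- mice and 86.0 ± 5.61 CPM in WT mice at ZT13, with an interval of -1.30% to 12.6%. Srebf1 averaged 88.4 ± 7.67 CPM in ASIC1a-/- mice and 87.6 ± 2.44 CPM in WT mice at ZT13. Among fatty acid genes, Fasn averaged 477.1 ± 14.7 CPM in ASIC1a-/- mice and 470.9 ± 16.2 CPM in WT mice at ZT13, and Scd2 averaged 2886 ± 45.3 CPM in ASIC1a-/- mice and 2848 ± 101.6 CPM in WT mice. The 8 fatty acid genes had a median log2 fold change of 0.01 at ZT13 and 0.0051 at ZT1, and the 8 genes of the mevalonate arm 0.04 and 0.02. Sqle and Srebf2 lie on chromosome 15 with Asic1, 40.3 and 17.5 Mb from it, and neither was called between genotypes.

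Marker lists of cell types had 0 genes called between genotypes, with or without the pair of libraries high in meningeal markers. The study reported Prl, a pituitary marker here, as lower in ASIC1a-/- mice at ZT13, by RNA-seq at its own threshold and by RT-qPCR. Of the 3 pituitary markers tested, 2 at each time had an edgeR unadjusted p under 0.05, against 3.74% of all genes at ZT13 and 7% at ZT1. The 10 oligodendrocyte markers all had values above 0 in ASIC1a-/- over WT mice, with medians of 0.07 at ZT13 and 0.11 at ZT1 on the log2 scale, and 0.07 and 0.10 without that pair. Of 7 microglial markers 6 were above 0 at each time, with medians of 0.05 and 0.09, and all 5 endothelial markers were above 0 at ZT13, with a median of 0.15, or 0.06 without the pair, while at ZT1 it was 0.02, or -0.03 without the pair. The 7 meningeal markers had medians of 0.47 at ZT13 and 0.99 at ZT1, but -0.32 and 0.39 without the pair, so the direction at ZT13 turned. The 3 pituitary markers tested had medians of -2.74 at ZT13 and 2.35 at ZT1. The 8 hypothalamic markers had medians of -0.11 and -0.02, or -0.10 and 0.01 without the pair. At ZT13 5 of these 8 were below 0 and 3 above. An edgeR unadjusted p under 0.05 was found for 3 of the 8 there, against 3.74% of all genes. All 5 thalamic markers were below 0 at ZT1, with a median of -0.21, or -0.14 without the pair. At ZT13 the thalamic median was 0.0049, or 0.02 without the pair. The members' medians, beside these, were 0.02 and 0.0017, with 25 of 31 above 0 at ZT13 and 16 of 31 at ZT1. Of all 15808 genes, 7909 were above 0 at ZT13 and 7913 at ZT1. Members can vary together, and these counts were not tested. The part of these markers in the members' values was not tested.

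**Figure D4:**
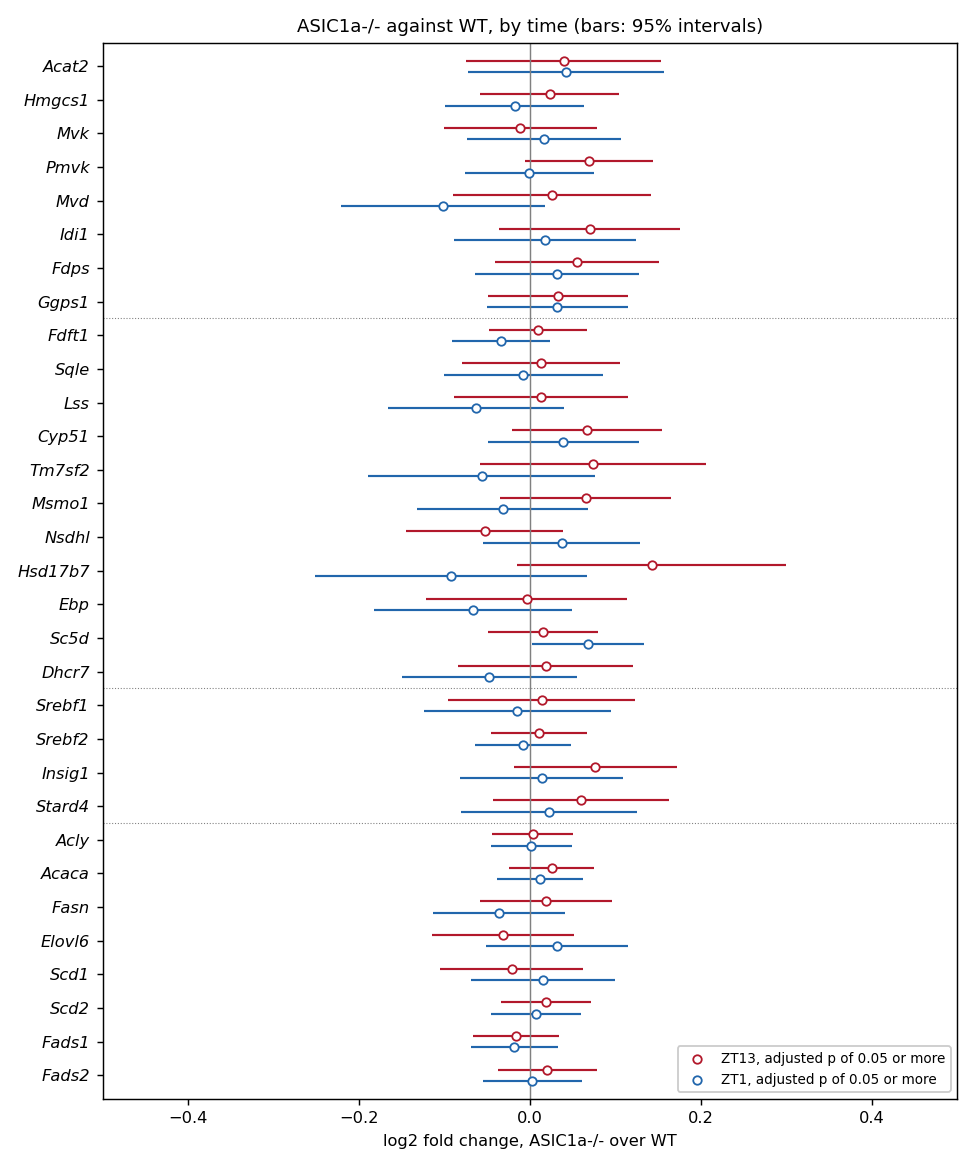
Log2 fold change of each member in ASIC1a-/- over WT mice, with its 95% interval, at ZT13 (red, upper) and ZT1 (blue, lower), on the same axis as the comparison of times. All points are open, since 0 of 31 members had an adjusted p under 0.05 at either time, and the widest intervals belong to Hsd17b7.

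Whether the deletion changed the difference between the times was tested by the interaction of genotype and time. It called 0 of 31 members, and 0.019% of all genes. The members' median was 0.03, with 25 of 31 above 0, against 7855 of all 15808 genes, a count that was not tested. The change in log2 fold change (ZT13 over ZT1 in ASIC1a-/- mice minus the same in WT mice) ran from -0.09 (Nsdhl) to 0.23 ± 0.11 (Hsd17b7), and Hsd17b7 alone had an unadjusted p under 0.05 (0.0412; adjusted p = 0.9997), against 3.91% of all genes. For Mvd it was 0.13 ± 0.08 (95% interval -0.04 to 0.29), for Lss 0.08 ± 0.07 (-0.07 to 0.22), for Sc5d -0.05 ± 0.04 (-0.14 to 0.04) and for Ebp 0.06 ± 0.08 (-0.10 to 0.23). The calls made in a single genotype are therefore not shown to differ between the genotypes.

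The members also varied between mice of the same group. Within a group the SD of log2 CPM had a median of 0.06 over the members, from 0.03 for Acly to 0.11 for Hsd17b7, against 0.08 over all genes tested. ASIC1a-/- ZT13 replicate 4 was the highest library of its group for 21 of the 31 members, ASIC1a-/- ZT1 replicate 2 for 22 and WT ZT13 replicate 1 for 18. These ranks were not counted over all genes, so they cannot be called particular to the members. In ASIC1a-/- ZT13 replicate 4, Acat2 stood at 70.3 CPM, above the 57.9 to 62.3 CPM of its group's remaining libraries, and Idi1 at 83.3 CPM against 70.6 to 75.7 CPM, while Fasn and Srebf1 were the lowest of the group.

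Hmgcs1 was compared with 6 other members after the group means were removed (16 libraries, two-sided permutation test within groups, adjusted over the 6). It moved with Idi1 (Pearson's r = 0.814, p = 0.00023, adjusted 0.00138; Spearman's rho = 0.806, p = 0.00055, adjusted 0.0033), and r was 0.731 once the 2 libraries with the most extreme Hmgcs1 were left out. For Sqle r was 0.754 (p = 0.00388, adjusted 0.0116), rho 0.691 (p = 0.00956, adjusted 0.0287), and r without those 2 libraries 0.726. Cyp51 gave r = 0.692 (p = 0.00594, adjusted 0.0119), rho = 0.582 (p = 0.0325, adjusted 0.0487) and r = 0.744 without 2 libraries. With Insig1 r was 0.603 (p = 0.0275, adjusted 0.0412) and rho 0.626 (p = 0.0274, adjusted 0.0487), but r was 0.419 without 2 libraries, so that relation rests largely on them. Srebf2 (r = 0.460, p = 0.135, adjusted 0.162; rho = 0.365, p = 0.232, adjusted 0.278) and Fasn (r = -0.193, p = 0.559, adjusted 0.559; rho = -0.209, p = 0.497, adjusted 0.497) did not pass in this permutation test. On the log2(TPM + 1) scale r was 0.590 for Idi1, 0.651 for Sqle, 0.461 for Cyp51 and 0.400 for Insig1. The genes of a library share its RNA, its depth and its scaling factor, and what these contribute to r was not tested.

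**Figure D5:**
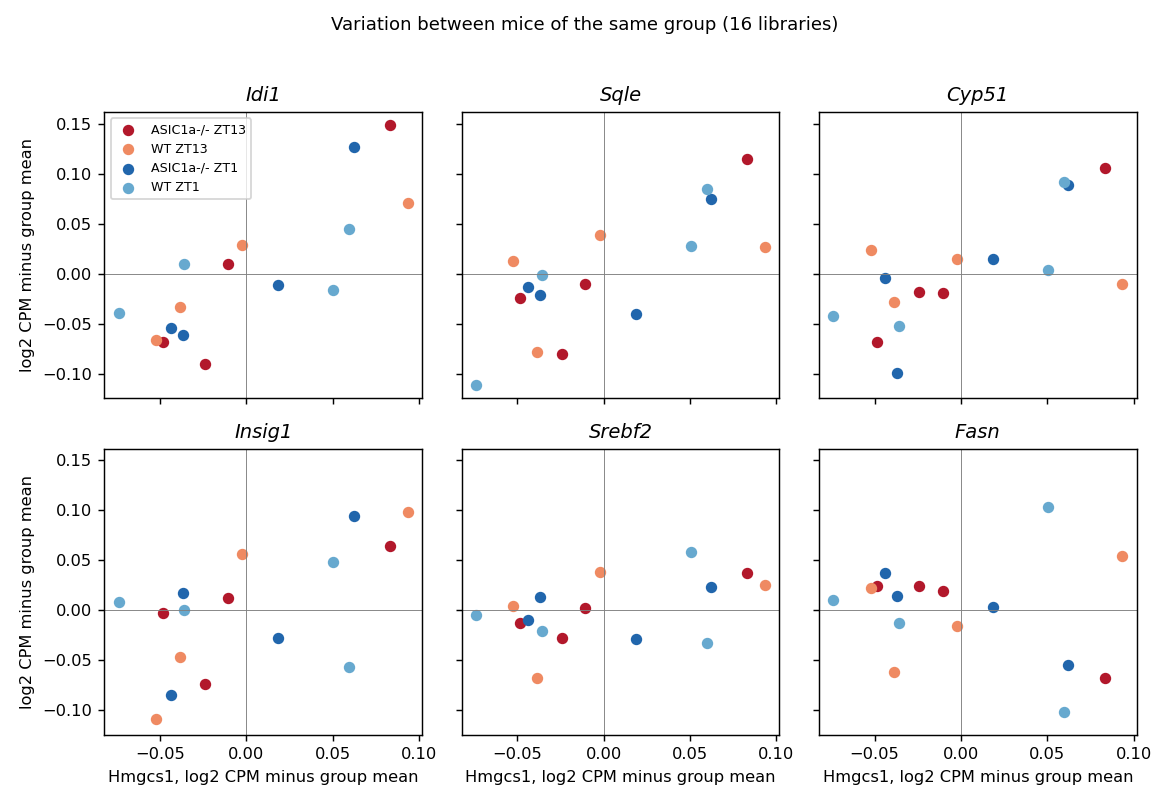
Each panel plots a member against Hmgcs1, both as log2 CPM minus the mean of the library's group, over the 16 libraries coloured by group. Points climb from lower left to upper right for Idi1 (r = 0.814), Sqle (0.754) and Cyp51 (0.692), and show no such slope for Fasn (-0.193).

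Other genes of the pathways, listed by function, were tested in the same way. Of 19 tested genes of synthesis and SREBP processing, 0 were called between genotypes, and between ZT13 and ZT1 averaged over genotypes 6 (31.6%) were called, against 26.4% of all genes, 3 higher and 3 lower, against 14.3% and 12.1%. In ASIC1a-/- mice 5 (26.3%) were called, against 11.3%, but 2 (10.5%) without the pair of libraries high in meningeal markers, against 7% of all genes then, and in WT mice 2 (10.5%), against 13.3%. The higher 3 had averaged log2 fold changes of 0.17 to 0.18, and among them was Lbr, a nuclear membrane protein with sterol reductase activity (0.17, edgeR adjusted p = 0.0088). The lower 3 were Hsd17b12 (-0.11, adjusted p = 0.00209), Hacd3 (-0.09, 0.00153) and Tecr (-0.05, 0.0380), which carry out successive steps of very long chain fatty acid elongation. Of 19 tested genes of sterol transport, efflux and turnover, 1 (5.26%) was called between the times averaged over genotypes, against 26.4% of all genes. This was Osbp, which carries oxysterols and cholesterol between membranes and was higher at ZT13 (0.11, edgeR adjusted p = 0.000651). None was lower, and 0 were called between genotypes. Without the same pair of libraries Osbp was again called and Apoe, the main lipid carrier of the brain, was called as lower at ZT13. That made 10.5% of the list, against 23.2% of all genes then.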

How the data were processed

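RNA of hypothalamus from 16 mice was sequenced, 1 library per mouse. As the study's methods describe it, the authors trimmed reads with cutadapt 1.8, removed ribosomal and low complexity reads, aligned the rest to the GRCm38 transcriptome with STAR 2.5.3a and estimated abundance with RSEM 1.2.31. The deposited files give, for each of 55401 genes, an expected count, in which RSEM divides reads that fit several genes, and TPM, which the authors scaled by effective transcript length. The strand used in counting is not given in the sources used here, so overlapping antisense transcripts could share reads. Expected counts (4.85% of values were not whole) were rounded. The sums of 34888522 to 42326259 per library limit counting error to a few percent for the members.

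The 15808 genes over 1 CPM in any library were analysed in edgeR 4.0.16 (R 4.3.3) with TMM scaling and quasi-likelihood F tests in 1 fit of the 4 groups with 12 residual degrees of freedom. The 7 comparisons were adjusted by Benjamini-Hochberg over all genes tested, and a gene was called at an adjusted p under 0.05. CPM values are TMM-scaled, fold changes carry 95% intervals, and log2 CPM used a prior count of 2. Alternatives were RLE or library size scaling, no filter or edgeR's own filter, DESeq2 1.42.0, limma-voom (limma 3.58.1), limma on log2(TPM + 1) or log2(TPM + 0.1), the replicate number as a block, and leaving out libraries. Leaving the pair of libraries high in meningeal markers out of the counts for marker and pathway lists was chosen after seeing the data. Correlations used 100000 permutations within groups (scipy 1.17.1). Promoter windows came from RefSeq for GRCm38.p6 and gene positions from a GRCm38 annotation.

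Members, gene lists and markers were chosen with earlier results of these data known. Members called in any comparison, and Hmgcs1, Sqle, Insig1, Srebf1, Srebf2, Fasn, Scd1 and Scd2, are given in every library, and the others by fold change and adjusted p. Libraries of the same group differed from each other beyond counting error in all 24 pairs (chi-square per degree of freedom 2.91 to 9.78), so none was a repeat of another. The fitting steps were tested on simulated data.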

Additional observations from a re-analysis of the deposited data

Results flagged for a closer look

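In 5 of the 124 sets of 4 libraries (31 members in 4 groups), 1 library stood apart from the other 3 by a gap past Dixon's critical value, and chance alone gives about 1 in 20 such sets. ASIC1a-/- ZT1 replicate 2 was the high library in 3 of them: Acat2, the thiolase, was at 64.9 CPM there and at 57.5 to 58.6 CPM in the other libraries of its group. In the same library Ggps1 was at 73.6 CPM against 69.7 to 70.1 CPM, and Fads2 at 301.8 CPM against 288.1 to 288.7 CPM. Dhcr7 reached 46.3 CPM in WT ZT1 replicate 3, with 42.1 to 42.7 CPM in the other WT ZT1 libraries. Fasn was low in ASIC1a-/- ZT13 replicate 4, at 455.1 CPM, with 483.3 to 485.1 CPM in the others.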

How the results depend on the processing

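Across 26 alternative settings, of which 16 left out 1 library each, the members called between genotypes or by the interaction stayed at 0. The 12 calls made for single members between the times were repeated in 283 of 312 cases, fell short of the threshold in 29 and changed direction in 0. In ASIC1a-/- mice the count of members called between ZT13 and ZT1 was 5 with library size only and 1 without the 2 libraries high in meningeal markers, against 3. In WT mice it was 1 without WT ZT13 replicate 4, against 3. Leaving out 1 library at a time gave 5 to 8 members averaged over genotypes, 2 to 4 in ASIC1a-/- mice and 1 to 4 in WT mice. The cause of these shifts was not tested.

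Libraries with the same replicate number did not deviate together more than those with other numbers. The correlation was -0.32 to 0.22 in 24 pairs, 4 over 0.1, against -0.28 to 0.47 in 72 other pairs, 13 over 0.1. The main fit therefore did not pair them, although the labels do not say whether the numbers pair mice. With the replicate block 6 members were called averaged over genotypes, 2 in ASIC1a-/- mice and 3 in WT mice, and Cyp51 was the ASIC1a-/- call not made (adjusted p = 0.0726).

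Over all genes, calls between genotypes at ZT13 were 29 without a filter and 30 with DESeq2, against 16. At ZT1 they were 15 without a filter, 7 with DESeq2 and 1 on the TPM scale, against 2, and averaged over the times 20, 23 and 6, against 10. Between the times the TPM scale called 971 genes in ASIC1a-/- mice against 1792, 879 in WT mice against 2099 and 2643 averaged over genotypes against 4170. The interaction called 17 without a filter, 13 with DESeq2 and 5 with the block, against 3. Without ASIC1a-/- ZT13 replicate 1 there were 1162 calls between the times in ASIC1a-/- mice, and without the 2 libraries high in meningeal markers 1099. Without WT ZT13 replicate 4 there were 1320 in WT mice and without WT ZT1 replicate 4 there were 1394. With 4 mice a group and changes under 30%, calls near the threshold are the least certain.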
